A study of Mus musculus with 3 samples.

Results

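C-type lectin receptors are the cell surface proteins with which myeloid cells bind sugars and lipids of microbes and of damaged tissue. The genes followed here are 10 of this class in mouse dorsal skin: Clec4n, Clec4e, Clec4d, Clec7a, Clec10a, Cd209a, Cd209d, Cd209e, Cd209f and Cd209g. The rule was their symbols, and no measured value entered it, but it was set with earlier results of these data known. Of the 32285 genes in the deposited matrices, 9 were these members. Clec7a, which encodes Dectin-1, had no matrix row under this symbol and was not analysed here.

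The data are single-cell 3′ RNA sequencing of dorsal skin, in which a unique molecular identifier (UMI) marks each captured mRNA molecule. Magnetic beads against CD45+ cells had been used to enrich for immune cells. The 3 groups were unexposed wild-type mice (WT_Ctrl), wild-type mice exposed to UVB 3 times (WT_UV), and RP mice with the same 3 exposures (RP_UV), all on C57Bl/6. RP stands for Rosa26-rtTA; Tre-Ptgs2: with doxycycline, the reverse transactivator expressed from Rosa26 drives rat Ptgs2, which encodes the prostaglandin-forming enzyme Cox-2, throughout the body. All mice were 8-week-old males with hair follicles in telogen. Each group had 1 library, so no test was possible and no difference had a replicate check; intervals below cover counting error only, at 95%. WT_Ctrl and RP_UV carry one flow cell identifier in their labels and WT_UV another, so against WT_UV, sequencing run and group cannot be told apart.

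The libraries kept 5309, 5225 and 6070 cells (WT_Ctrl, WT_UV and RP_UV, the order used for all triplets below), with medians of 4246, 10557 and 3774 UMIs per cell. Only 29 cell barcodes occurred in more than 1 library. Over all kept cells Ptgs2 stood at 14.4, 118 and 486 CPM (UMIs of a gene per 1000000 UMIs of all genes), highest in RP_UV. Whether reads of the rat transgene count towards the mouse gene was not tested. These sums also depend on the mix of cells. RP_UV over WT_UV was 3.01-fold within macrophages (2.77 to 3.26) and 1.34-fold within type 2 dendritic cells (1.16 to 1.54). Hbb-bs, a globin gene of red blood cells, stood at 0.271, 0.201 and 194 CPM, so blood RNA was far more abundant in RP_UV. Keratinocytes numbered 1206, 530 and 1161 despite the enrichment. Classes were rebuilt from marker genes and every class name means X-like. Macrophages numbered 1697, 1944 and 2161, type 2 dendritic cells 540, 540 and 191, and neutrophils 9, 57 and 580. All 9 macrophage markers stood at 10 CPM or more in the macrophages of each library. The clusters with the most macrophages differed between libraries (clusters 0.1 and 1.1 in WT_Ctrl, 0.0 and 1.2 in WT_UV, 1.0 and 0.2 in RP_UV). The same was true of type 2 dendritic cells, led by cluster 3.1 in WT_Ctrl and by cluster 3.0 in WT_UV and RP_UV. Cells in unnamed clusters made up 18.2%, 22.9% and 10.6% of the kept cells.

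The members fall into 3 functional groups. Clec4n (Dectin-2), Clec4e (Mincle) and Clec4d (MCL) lie side by side on chromosome 6 and signal through the Fc receptor gamma chain (Fcer1g), the kinase Syk and the Card9, Bcl10 and Malt1 complex, a route that ends in NF-kB and in cytokines such as Il1b and Tnf. Their known ligands include fungal mannans and mycobacterial glycolipids, and Mincle also binds material of dead cells. The Cd209 genes on chromosome 8 are the mouse relatives of human DC-SIGN, which binds mannose and fucose and takes up its ligands. Clec10a (MGL1) on chromosome 11 binds galactose-type sugars and is a marker of resident and alternatively activated macrophages. All positions below refer to GRCm38.p6, the RefSeq release of the mm10 build.

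Clec4n lay at chr6:123229843-123247024, Clec4d at chr6:123262107-123275268 and Clec4e at chr6:123281789-123289871. Cd209a lay at chr8:3743395-3748984, Cd209e at chr8:3847973-3854286, Cd209d at chr8:3871824-3878548, Cd209f at chr8:4102784-4105838 and Cd209g at chr8:4134246-4137707. Clec10a lay at chr11:70166623-70170836. Since the Cd209 genes are close relatives, reads could in principle be split between them. In the last 400 bases of the longest protein-coding transcript of each member (GENCODE vM39, GRCm39), 0 of 351 words of 50 bases occurred in a transcript of another gene, for each of the 9 members.

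RefSeq promoter windows were found for 7 of the 9 members with a matrix row, and 4 are shown because their genes went together most closely in the data below. The windows of Cd209f and Cd209g shared an unbroken run of 180 identical bases. The first 166 bases of each are given, up to the first base of an annotated coding transcript of either gene, with the shared run in capitals; the Cd209g stretch lies within its annotated locus (Cd209f, minus strand, chr8:4105849-4106014, 70 capitals; Cd209g, plus strand, chr8:4134486-4134651, 84 capitals):
Cd209f: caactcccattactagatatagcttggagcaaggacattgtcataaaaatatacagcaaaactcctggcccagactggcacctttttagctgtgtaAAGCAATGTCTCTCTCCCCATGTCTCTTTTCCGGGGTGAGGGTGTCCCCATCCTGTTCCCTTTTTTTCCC
Cd209g: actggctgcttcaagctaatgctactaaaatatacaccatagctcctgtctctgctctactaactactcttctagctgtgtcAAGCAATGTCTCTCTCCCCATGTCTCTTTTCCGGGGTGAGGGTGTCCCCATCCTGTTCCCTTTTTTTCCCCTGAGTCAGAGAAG

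The 250 bases before the start of Clec4d (plus strand, chr6:123261857-123262106) and of Clec4e (minus strand, chr6:123289872-123290121) are given with matches to 3 motifs in capitals:
Clec4d: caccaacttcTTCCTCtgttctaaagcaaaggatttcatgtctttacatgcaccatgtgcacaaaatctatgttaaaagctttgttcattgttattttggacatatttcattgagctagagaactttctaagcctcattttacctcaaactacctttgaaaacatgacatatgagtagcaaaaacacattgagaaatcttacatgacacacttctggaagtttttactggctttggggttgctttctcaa
Clec4e: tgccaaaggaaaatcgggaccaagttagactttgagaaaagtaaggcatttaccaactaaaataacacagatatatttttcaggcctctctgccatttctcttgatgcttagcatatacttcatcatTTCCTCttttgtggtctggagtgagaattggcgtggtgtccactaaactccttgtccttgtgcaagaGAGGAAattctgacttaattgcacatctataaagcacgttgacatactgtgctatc

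The 3 motifs were read on both strands. The first was GAGGAA, the core bound by PU.1. It occurred once in Clec4d, once in Cd209d and in 2 places in Clec4e, and in 23.3% of the 32851 RefSeq windows of the same 250 bases. The second was TTCCGG, an ETS core, which occurred in the windows of Cd209a, Cd209e, Cd209f and Cd209g and in 12.0% of all windows. The third was TGANTCA, the AP-1 site, where N is any base; it occurred in Cd209f and Cd209g and in 6.75% of all windows. The PU.1 and ETS cores did not occur together in any member's window. These matches are descriptions of the letters, not of binding.

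To ask where each member was expressed, raw UMIs were summed over the cells of a class in each library and divided by the UMIs of all genes. 3′ UMI counts do not scale with transcript length, so levels of different genes are compared directly in CPM. The members separated into genes of macrophages, genes of type 2 dendritic cells and genes of neutrophils. Cd209f, Cd209g and Clec10a were macrophage genes, Cd209a and Cd209e were highest in type 2 dendritic cells, Cd209d was abundant in both, and Clec4d and Clec4e were highest in neutrophils.

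**Figure D1:**
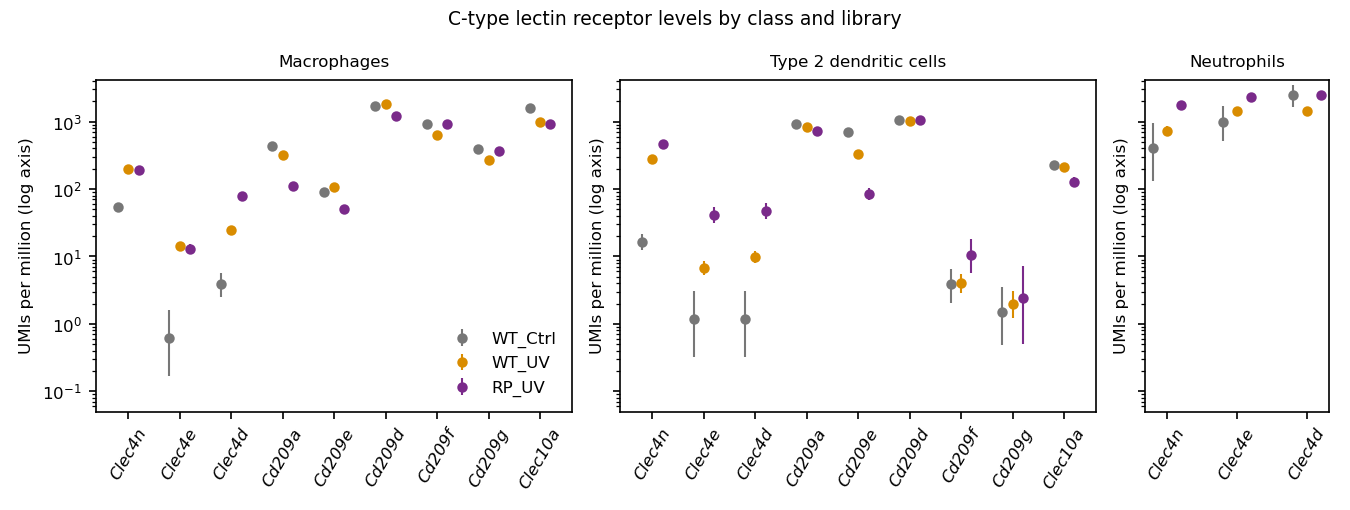
Levels of the 9 members in CPM (log axis) in macrophages, type 2 dendritic cells and, for Clec4n, Clec4e and Clec4d, neutrophils; points are libraries and bars are exact Poisson 95% intervals. Clec4d stood at 3.90, 24.4 and 79.7 in macrophages, while Cd209d stayed between 1028 and 1055 in type 2 dendritic cells.

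Cd209d was the most abundant Cd209 gene of macrophages. It stood at 1724 CPM in WT_Ctrl, 1842 in WT_UV and 1192 in RP_UV macrophages (11047, 43024 and 13393 UMIs). In type 2 dendritic cells it stood at 1055, 1028 and 1050 CPM (3550, 10360 and 1290 UMIs), and the intervals of these 3 values overlapped. T cells, which should lack the gene, held 45.2, 35.2 and 29.4 CPM and the neutrophils of WT_UV and RP_UV 44.8 and 73.2, so the neutrophil values are near the level that free RNA gives.

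Cd209f and Cd209g were found almost only in macrophages: these cells held 93.6%, 95.9% and 92.1% of all Cd209f UMIs and 93.1%, 94.5% and 93.0% of all Cd209g UMIs. Macrophages carried Cd209f at 931, 642 and 935 CPM (5962, 15006 and 10512 UMIs) and Cd209g at 392, 265 and 368 CPM (2508, 6193 and 4132 UMIs). Both genes were lowest in WT_UV. Type 2 dendritic cells held Cd209f at 3.87, 4.07 and 10.6 CPM (13, 41 and 13 UMIs) and Cd209g at 1.49, 1.99 and 2.44 CPM (5, 20 and 3 UMIs). T cells held 7.87, 12.9 and 73.6 CPM of Cd209f, the last from 5 UMIs, and keratinocytes 7.45, 8.21 and 18.9 CPM, so the dendritic cell values do not exceed background.

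Clec10a was the other macrophage gene. Its levels were 1567, 982 and 920 CPM in macrophages (10041, 22940 and 10335 UMIs) and 225, 214 and 127 CPM in type 2 dendritic cells (758, 2152 and 156 UMIs). Monocytes held 228 and 232 CPM in WT_Ctrl and WT_UV, which did not differ beyond counting error, and the 14 monocytes of RP_UV held 41.1 CPM from 2 UMIs, at 0.177 of WT_UV (0.0213 to 0.650). Mast cells held 685, 678 and 447 CPM, with overlapping intervals over 24, 140 and 29 UMIs.

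Cd209a, a common marker of dendritic cells, was highest in type 2 dendritic cells at 921, 836 and 723 CPM (3097, 8417 and 888 UMIs). Macrophages held 433, 315 and 110 CPM (2776, 7357 and 1231 UMIs), and monocytes 215, 156 and 20.55 CPM (50, 123 and 1 UMIs). Cd209e stood at 710, 331 and 85.5 CPM in type 2 dendritic cells (2389, 3335 and 105 UMIs) and at 89.4, 108 and 50.5 CPM in macrophages (573, 2527 and 567 UMIs). The share of all Cd209e UMIs that lay in type 2 dendritic cells was 71.4%, 47.0% and 13.5%.

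Clec4n was present in macrophages, dendritic cells, monocytes, Langerhans cells and neutrophils. It stood at 54.9, 195 and 190 CPM in macrophages (352, 4566 and 2141 UMIs) and at 16.4, 281 and 470 CPM in type 2 dendritic cells (55, 2834 and 577 UMIs). Langerhans cells, the dendritic-like cells of the epidermis, held 233, 88.1 and 262 CPM (80, 95 and 28 UMIs). Their WT_UV level was 0.378 of WT_Ctrl (0.278 to 0.515), opposite to macrophages and type 2 dendritic cells. Monocytes held Clec4n at 25.8, 237 and 82.2 CPM (6, 187 and 4 UMIs). In the neutrophils of WT_UV and RP_UV it stood at 733 and 1780 CPM (131 and 1677 UMIs). Langerhans cells also held Cd209a at 57.5 CPM and Cd209d at 47.3 CPM in WT_UV, from 62 and 51 UMIs, and Cd209e at 26.9 CPM from 29 UMIs.

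Clec4d and Clec4e reached their highest levels in neutrophils. Clec4d stood at 2470, 1439 and 2438 CPM in neutrophils (30, 257 and 2296 UMIs) and Clec4e at 988, 1450 and 2277 CPM (12, 259 and 2145 UMIs). The WT_Ctrl values rest on 9 cells. In RP_UV, neutrophils held 55.0% of all Clec4d UMIs and 66.3% of all Clec4e UMIs, against 19.3% and 17.6% in WT_UV. Macrophages held 21.5% and 4.5% in RP_UV, and 42.9% and 23.0% in WT_UV, more than the neutrophils of that library. Clusters that met no naming rule held 49.5% of the Clec4e UMIs in WT_UV and 25.2% in RP_UV, and Clec4e stood at 1.39, 48.6 and 231 CPM over those clusters. In macrophages Clec4d stood at 3.90, 24.4 and 79.7 CPM (25, 570 and 896 UMIs) and Clec4e at 0.624, 14.5 and 12.99 CPM (4, 339 and 146 UMIs). In type 2 dendritic cells the 2 genes were close: Clec4d at 1.19, 9.83 and 47.2 CPM (4, 99 and 58 UMIs) and Clec4e at 1.19, 6.85 and 41.5 CPM (4, 69 and 51 UMIs). In monocytes of WT_Ctrl and WT_UV, Clec4e stood at 38.7 and 74.7 CPM (9 and 59 UMIs) and Clec4d reached 30.4 CPM in WT_UV (24 UMIs). The 14 monocytes of RP_UV held 308 CPM of Clec4e and 226 CPM of Clec4d, from 15 and 11 UMIs, beside a summed neutrophil marker level of 822 CPM, against 60.2 and 77.2 CPM in the monocytes of WT_Ctrl and WT_UV. Type 1 dendritic cells held Cd209a at 53.9 and 86.7 CPM and Cd209d at 70.5 and 47.8 CPM in WT_Ctrl and WT_UV, and Clec4n at 24.4 CPM in WT_UV. The 13 type 1 dendritic cells of RP_UV held 110 CPM of Clec4e and 70.0 CPM of Clec4d (11 and 7 UMIs), beside a summed neutrophil marker level of 2929 CPM. In the mature dendritic cells of WT_UV, Cd209d stood at 127 CPM and Cd209a and Clec4n at 49.6 CPM each.

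Outside the myeloid classes the members were low. The highest values were in the Schwann cells of WT_Ctrl, with Clec10a at 199.8 CPM, Cd209d at 162 CPM and Cd209f at 80.9 CPM (42, 34 and 17 UMIs). In the fibroblasts of RP_UV, Cd209d stood at 23.9 CPM, Cd209f at 23.2, Clec10a at 15.2 and Cd209g at 10.1 CPM, and in its endothelial cells Cd209d stood at 48.4 CPM, Cd209f at 41.6 and Clec10a at 33.1 CPM. These classes should lack the genes.

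To compare UVB-exposed with unexposed wild-type macrophages, a gene was called higher or lower at a fold of 2 or more, or 0.5 or less, among genes at 10 CPM or more in at least 1 of the 2 libraries. All 9 members passed that filter. The 3 receptors of the Syk route were higher in WT_UV, which is 3 of 9 members against 3.35% of the 7935 genes that passed. Clec4d and Clec4e passed the filter only through WT_UV, so they could not be called lower. Clec4n was 3.56-fold higher (interval 3.19 to 3.98), Clec4d 6.25-fold (4.19 to 9.74) and Clec4e 23.2-fold (8.99 to 85.8), the last against only 4 UMIs in WT_Ctrl. No member was 2-fold lower, where 1.08% of genes were. Clec10a was at 0.627 of its WT_Ctrl level (0.612 to 0.641), Cd209g at 0.677 (0.646 to 0.710), Cd209f at 0.690 (0.670 to 0.711) and Cd209a at 0.727 (0.696 to 0.760), while Cd209d was at 1.07 (1.05 to 1.09) and Cd209e at 1.21 (1.10 to 1.33).

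For type 2 dendritic cells of the same libraries, 5 members passed the filter. Clec4n was 17.2-fold higher in WT_UV (13.2 to 22.9), the 1 member called higher, where 3.96% of the 7502 genes that passed were. Cd209e was 2.15-fold lower (its level was 0.466 of WT_Ctrl, 0.442 to 0.492), the 1 member called lower, where 1.77% of genes were. That call was lost on thinning to equal depth and with 1 gene limit for cells of all libraries (log2 fold up to -0.91). Cd209a (0.908, interval 0.871 to 0.946), Cd209d (0.974, 0.938 to 1.01) and Clec10a (0.948, 0.872 to 1.03) stayed close to their WT_Ctrl levels. Clec4d and Clec4e did not reach the filter; their folds from 4 UMIs each in WT_Ctrl were 8.26 (3.13 to 30.9) and 5.76 (2.15 to 21.7). Cd209f and Cd209g did not reach it either.

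**Figure D2:**
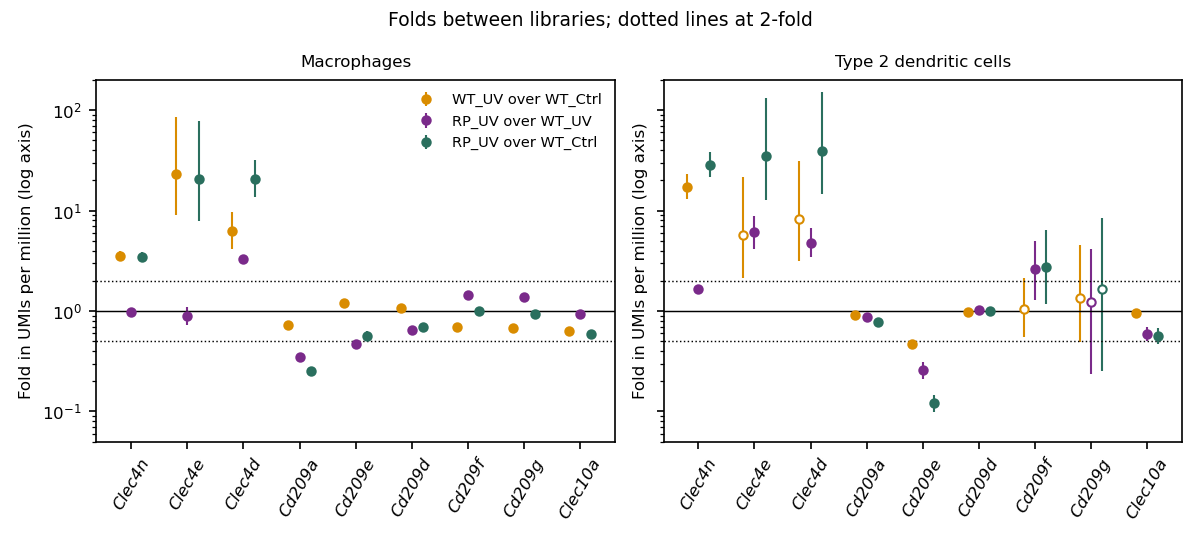
Folds in CPM (log axis) between libraries for the 9 members; bars are exact 95% intervals of the ratio of UMIs, dotted lines mark 2-fold in each direction and open points mark members under 10 CPM in both libraries. The chromosome 6 receptors lie above 1 in both comparisons with WT_Ctrl, and Cd209e in type 2 dendritic cells lies below 0.5 in all 3 comparisons.

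To compare Cox-2 overexpressing with wild-type skin after UVB, RP_UV was set against WT_UV. In macrophages Clec4d was the 1 of 9 members called higher, at 3.27-fold (2.94 to 3.64), where 1.41% of the 7925 genes that passed were. Clec4n (0.975, interval 0.926 to 1.03) and Clec4e (0.895, 0.732 to 1.09) did not differ beyond counting error, but without integration of the libraries Clec4e was higher in RP_UV, at a log2 fold of 1.10. Cd209a was 2.88-fold lower (0.348, 0.327 to 0.370) and Cd209e 2.14-fold lower (0.466, 0.425 to 0.511), the 2 members called lower, where 3.23% of genes were. The Cd209e call was lost in 3 of 11 other settings, among them thinning to equal depth (log2 fold up to -0.81). Cd209d was at 0.647 (0.635 to 0.660) and Clec10a at 0.937 (0.915 to 0.959). Cd209f at 1.46-fold (1.42 to 1.49) and Cd209g at 1.39-fold (1.33 to 1.44) went the other way, so the Cd209 family did not move as 1 block in macrophages.

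Of the members, 8 passed the filter in type 2 dendritic cells in this comparison, and 3 were called higher, where 2.92% of the 7541 genes that passed were. These 3, Clec4d, Clec4e and Cd209f, passed the filter only through RP_UV, where they were high. They could not be called lower, so no conclusion is drawn from this count. Clec4e was 6.06-fold higher in RP_UV (4.14 to 8.83) and Clec4d 4.80-fold (3.41 to 6.71). Cd209f was 2.60-fold higher (1.28 to 4.95) from 13 UMIs, at a level within that of T cells, and its call was lost in 4 of 11 other settings (log2 fold down to 0.23). Clec4n was 1.67-fold higher (1.52 to 1.83). Cd209e was 3.87-fold lower (0.258, 0.211 to 0.314), the 1 member called lower, where 4.65% of genes were. Cd209a was at 0.865 (0.806 to 0.927), Cd209d at 1.02 (0.963 to 1.08) and Clec10a at 0.594 (0.502 to 0.700). Macrophage markers also stood higher in these cells: their summed level was 330, 721 and 1591 CPM, with 5, 7 and 8 of 9 markers at 10 CPM or more. The part of these markers in the results was not tested.

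RP_UV and WT_Ctrl shared the flow cell identifier, but differed in both genotype and UVB. In macrophages 3 members were called higher, where 5.16% of the 7968 genes that passed were, and 1 lower, where 4.81% were. Clec4e was 20.8-fold higher (7.95 to 77.4), Clec4d 20.4-fold (13.8 to 31.7) and Clec4n 3.47-fold (3.10 to 3.89). Clec4e and Clec4d passed the filter only through RP_UV here and could not be called lower. Cd209a was 3.96-fold lower (0.253, 0.236 to 0.270). The remaining members were within 2-fold: Cd209e at 0.564 (0.501 to 0.635), Clec10a at 0.587 (0.571 to 0.603), Cd209d at 0.691 (0.674 to 0.709), Cd209g at 0.939 (0.893 to 0.987) and Cd209f at 1.01 (0.974 to 1.04). Type 2 dendritic cells had 4 members called higher, where 7.97% of the 7592 genes that passed were, and 1 lower, where 7.32% were. Clec4d was 39.7-fold higher (14.7 to 150.6), Clec4e 34.9-fold (12.8 to 133), Clec4n 28.7-fold (21.8 to 38.6) and Cd209f 2.74-fold (1.17 to 6.41), and Cd209e was 8.31-fold lower (0.120, 0.0980 to 0.146). Of these, Clec4d, Clec4e and Cd209f passed the filter only through RP_UV and could not be called lower. Cd209a (0.785, 0.728 to 0.846), Cd209d (0.995, 0.933 to 1.06) and Clec10a (0.564, 0.471 to 0.670) were within 2-fold. These comparisons share libraries and are not independent of each other.

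Neutrophils were numerous in RP_UV, so the same receptors were set beside neutrophil markers in the other cells. The summed level of 8 neutrophil markers was 144, 119 and 94.1 CPM in macrophages and 6.24, 23.6 and 127 CPM in type 2 dendritic cells, with 5, 1 and 0 of the 8 at 0 in macrophages and 3, 2 and 1 in type 2 dendritic cells. S100a9, a cytosolic protein gene abundant in neutrophils, was at 0 UMIs in WT_Ctrl macrophages and at 0.514 and 21.1 CPM in those of WT_UV and RP_UV. In RP_UV neutrophils there were 0.105 Clec4d UMIs for each S100a9 UMI, against 3.78 in macrophages and 1.06 in type 2 dendritic cells of that library. For Clec4n the ratios were 0.0763, 9.03 and 10.5, and for Clec4e 0.0976, 0.616 and 0.927. Without the cells that held any S100a8 or S100a9 UMI, Clec4d in macrophages stood at 3.90, 23.8 and 77.3 CPM and Clec4n at 54.9, 194 and 191 CPM. Type 2 dendritic cells without such UMIs held Clec4e at 1.19, 6.75 and 29.8 CPM and Clec4d at 1.19, 9.87 and 38.2 CPM. In the neutrophils themselves, Clec4n was 2.43-fold higher in RP_UV than in WT_UV (2.03 to 2.92), Clec4d 1.69-fold (1.49 to 1.94) and Clec4e 1.57-fold (1.38 to 1.79).

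Dermal macrophages include a subset marked by Lyve1, Folr2 and Timd4 that lies along vessels. The 3 clusters with the highest score of that marker panel (0.8 or more, a limit set after the scores were seen) held 647, 549 and 781 cells, each cluster mostly from 1 library. Cd209f stood at 1438, 1195 and 1318 CPM in these cells against 654, 464 and 766 CPM in the other macrophages. Cd209g stood at 526, 467 and 469 CPM against 318 and 323 CPM in WT_Ctrl and RP_UV, and in WT_UV the interval of the others was 194 to 207 CPM. The intervals of the subsets did not overlap in any library, for either gene. These are sums, and single clusters outside the Lyve1 subset were higher in RP_UV. Cluster 0.2 (587 cells) held Cd209f at 1417 CPM and Cd209g at 611 CPM there, and cluster 23.0 (42 cells) held 2417 and 796 CPM. Clec10a was also higher in the Lyve1 subset, at 1868, 1687 and 1485 CPM against 1404, 754 and 670 CPM. Clec4n was lower there, at 30.6, 66.6 and 63.0 CPM against 68.2, 237 and 247 CPM. Clec4e was nearly confined to the other macrophages after UVB, at 18.6 and 17.7 CPM in WT_UV and RP_UV against 1.75 and 2.32 CPM in the Lyve1 subset, from 10 and 8 UMIs. Clec4d stood at 1.33, 11.8 and 34.3 CPM in the Lyve1 subset and at 5.30, 28.5 and 99.8 CPM in the others.

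Between libraries, Cd209f and Cd209g were then compared within each subset. WT_UV over WT_Ctrl gave 0.831 (0.796 to 0.866) and 0.887 (0.828 to 0.951), against 0.709 (0.679 to 0.741) and 0.628 (0.590 to 0.670) in the other macrophages. RP_UV over WT_UV gave 1.10 (1.06 to 1.15) and 1.01 (0.944 to 1.07) in the Lyve1 subset and 1.65 (1.60 to 1.71) and 1.62 (1.53 to 1.70) in the others. In these comparisons the folds of the Lyve1 subset lay nearer to 1. RP_UV over WT_Ctrl gave 0.916 (0.876 to 0.959) and 0.891 (0.827 to 0.962) in the Lyve1 subset, below 1, against 1.17 (1.12 to 1.23) and 1.02 (0.949 to 1.09) in the others. Clec4d in RP_UV over WT_UV was 2.92-fold higher in the Lyve1 subset (2.14 to 3.998) and 3.504-fold in the others (3.13 to 3.93). Cd209a in RP_UV was low in both subsets, at 114 CPM in the Lyve1 subset and 108 CPM in the others, against 357 and 301 CPM in WT_UV and 315 and 498 CPM in WT_Ctrl. Cd209d in WT_UV over WT_Ctrl was 1.52-fold higher in the Lyve1 subset (1.46 to 1.58) and at 0.919 in the others (0.897 to 0.942). Cd209e stood at 39.4, 74.7 and 45.0 CPM in the Lyve1 subset and at 117, 119 and 52.9 CPM in the others.

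**Figure D3:**
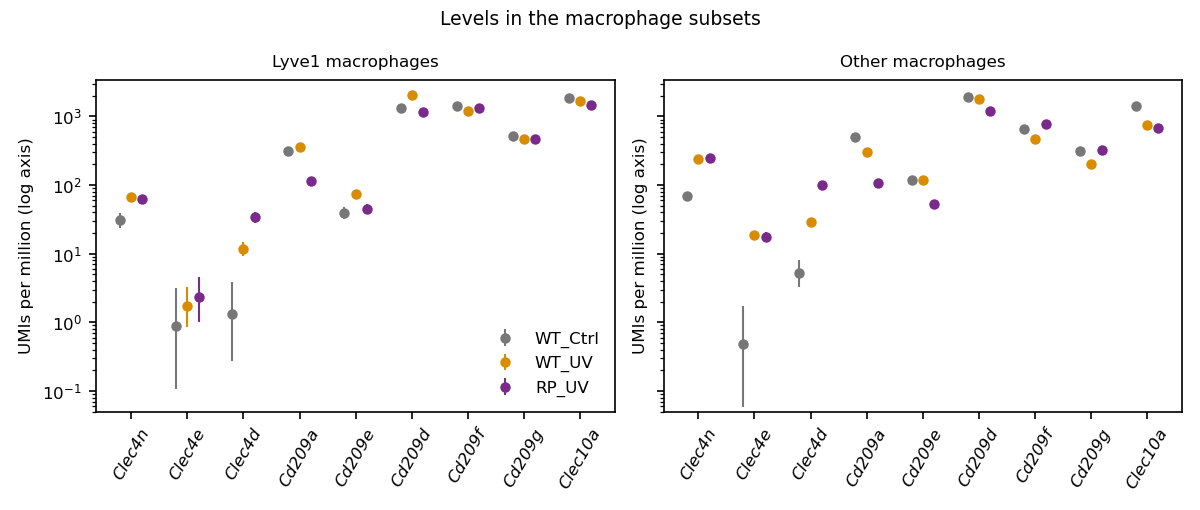
Levels of the 9 members in CPM (log axis) in the macrophages of the 3 clusters with the highest Lyve1 panel score and in the other macrophages; points are libraries and bars are exact Poisson 95% intervals. Summed over cells, Cd209f lies between 1195 and 1438 in the Lyve1 subset and between 464 and 766 in the others, which include single clusters with higher levels.

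Macrophage clusters spread widely around these sums. In WT_UV the cluster with C3ar1, Cxcl2 and Ccr2 among its leading genes (cluster 2.1, 301 cells) held Clec4n at 380 CPM, Clec4d at 55.1 and Clec4e at 63.5 CPM, and only 26.9 CPM of Cd209d and 6.50 of Cd209f. The WT_UV cells of the cluster led by Ccl8 and F13a1 (598 cells) held Cd209d at 3070 CPM, Cd209f at 758 and Clec4e at 0.716 CPM. In RP_UV the cluster led by Chil3, Pf4 and Ms4a7 (391 cells) held Clec4d at 158 CPM, Clec4n at 305 and Cd209d at 39.3 CPM, and the cluster led by Ccl8, Cd209f and C1qc (587 cells) held Cd209d at 2227 CPM, Cd209f at 1417 and Clec4d at 75.7 CPM. Clec4d was thus present in both of these RP_UV clusters. The 38 WT_UV cells of cluster 23.0 held Cd209d at 3636 CPM, Cd209f at 1136 and Clec4e at 25.25 CPM. These cells were shallow and the Clec4e level rests on very few UMIs, so no conclusion is drawn from it. In the 33 WT_UV cells of cluster 0.3, Cd209d at 647 CPM and Cd209f at 48.2 CPM lay between the WT_UV levels above. Clec4e, at 159 CPM, stood above its level in each of those WT_UV clusters.

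Folds were also read within macrophage clusters that had 30 or more cells of both libraries. Clec4n in WT_UV over WT_Ctrl was 2.64-fold in cluster 0.0, 2.98-fold in cluster 2.2, 1.38-fold in cluster 1.2, 1.08-fold in cluster 1.1 and 0.997 in cluster 0.1, against 3.56-fold over all macrophages. Clec4d in RP_UV over WT_UV was 1.78-fold in cluster 0.2, 2.49-fold in cluster 0.3 and 1.87-fold in cluster 2.4, against 3.27-fold over all macrophages, and in cluster 23.0 it stood at 54.9 CPM in RP_UV and 0 in WT_UV. Clec4n in RP_UV over WT_UV was at 0.817 in cluster 0.2, 0.690 in cluster 0.3 and 0.816 in cluster 23.0 and 1.66-fold higher in cluster 2.4, against 0.975 over all macrophages. Clec4e in RP_UV over WT_UV was at 0.194 in cluster 0.3 and 0.506 in cluster 2.4. In cluster 0.2 it stood at 3.27 CPM in RP_UV and 0 in WT_UV, and in cluster 23.0 at 0 in RP_UV and 25.25 CPM in WT_UV. These clusters held a minority of 1 of the libraries, often under 60 cells, so the values rest on few UMIs.

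Among type 2 dendritic cells, Cd209e and Clec4n peaked in different clusters. Cd209e was highest in cluster 3.1, led by Apod and Cd209e, where it stood at 1406 CPM in WT_Ctrl (209 cells) and 1235 CPM in WT_UV (75 cells). In cluster 3.0, led by Mmp12, Cd209e stood at 216 CPM in WT_UV (262 cells) and 66.5 CPM in RP_UV (118 cells), and cluster 3.0 had 1 WT_Ctrl cell. Within clusters with 30 or more cells of both wild-type libraries, the fold of Cd209e in WT_UV over WT_Ctrl was 0.878, 0.505 and 0.934 in clusters 3.1, 3.2 and 3.3 and 1.03 in the cycling cluster, led by Top2a and Mki67, against 0.466 in the sum over the class. Cluster 3.0, the largest of WT_UV, could not be compared in this way, and the part of the mix of clusters in the lower sum was not tested. In cluster 3.0, Cd209e in RP_UV was at 0.307 of WT_UV and Clec4n was 1.305-fold higher. For Clec4n the folds in WT_UV over WT_Ctrl were 5.45, 2.25, 14.5 and 17.3 in clusters 3.1, 3.2, 3.3 and the cycling cluster. WT_Ctrl stood there at 8.08, 32.8, 5.06 and 6.95 CPM and WT_UV at 44.1, 73.7, 73.2 and 120 CPM. The class held only 55 Clec4n UMIs in WT_Ctrl, so these folds rest on few UMIs. Cluster 3.0 held Clec4n at 468.5 CPM in WT_UV, against 281 CPM over the class. The part of the mix of clusters in the higher sum was not tested. The lectin genes had been left out of the genes used for clustering.

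**Figure D4:**
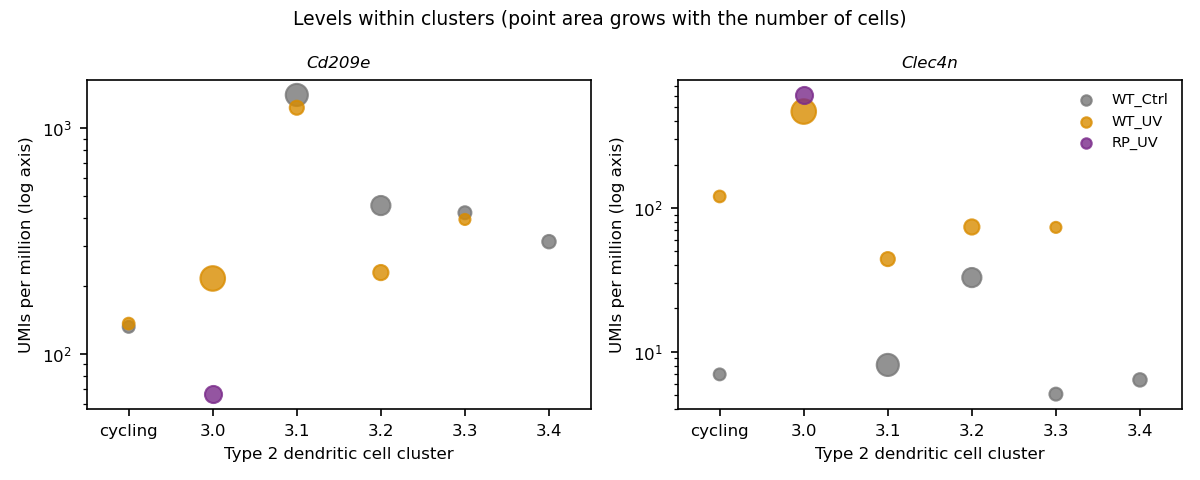
Levels of Cd209e and Clec4n in CPM (log axis) in the type 2 dendritic cell clusters with 30 or more cells of a library; point area grows with the number of cells. Cd209e in cluster 3.1 stands at 1406 in WT_Ctrl and 1235 in WT_UV, while Clec4n in WT_UV lies above WT_Ctrl in each cluster with both.

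To ask how many cells carried each gene at equal depth, cells were thinned to 2000 UMIs each and those below that depth dropped (272, 78 and 218 macrophages and 17, 0 and 9 type 2 dendritic cells). Clec4n was detected in 9.05% (7.67 to 10.7), 24.97% (23.1 to 27.0) and 23.5% (21.7 to 25.5) of macrophages, and in 15.7%, 55.0% and 41.3% before thinning. Among type 2 dendritic cells the shares were 2.68% (1.60 to 4.44), 32.6% (28.8 to 36.7) and 43.4% (36.4 to 50.7), and in 6.11%, 64.8% and 64.4% before thinning. T cells gave 0.741% and 0.214% in WT_Ctrl and WT_UV after thinning. The 35 T cells of RP_UV left only 13 at this depth, of which 0 held Clec4n, which allows up to 23.1%. The median depth of macrophages was 3723, 10910 and 4605 UMIs, and that of T cells was 2661, 6105 and 1671 UMIs.

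Clec4d was detected in 0.772%, 4.02% and 12.3% of macrophages at 2000 UMIs (1.24%, 14.97% and 24.1% before thinning), with intervals that did not overlap. Keratinocytes of RP_UV, which should lack it, gave 0.578%. Clec4e was detected in 0.0702%, 2.09% and 1.60% of macrophages (0.177%, 5.92% and 3.80% before thinning), against 0 of 411 keratinocytes in WT_UV, which allows 0.730%, and 0.347% in RP_UV. Few macrophages thus carried Clec4e in any library at this depth, whereas 79.2% and 90.2% of neutrophils did in WT_UV and RP_UV (80.7% and 80.5% before thinning, of 57 and 580 cells, with 4 and 468 left out).

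Cd209e was detected in 56.0% (51.7 to 60.2), 31.7% (27.9 to 35.7) and 9.34% (5.91 to 14.5) of type 2 dendritic cells, and in 69.1%, 65.2% and 21.5% before thinning. Cd209a was detected in 74.4%, 66.5% and 66.5% of these cells (92.2%, 92.4% and 86.9% before thinning) and in 45.5%, 34.8% and 16.6% of macrophages (54.7%, 57.2% and 25.2%). Cd209d was detected in 73.0%, 61.4% and 50.9% of macrophages (75.4%, 71.0% and 56.7%), against 2.22% and 6.84% of T cells in WT_Ctrl and WT_UV. Cd209f was detected in 58.6%, 42.8% and 49.7% of macrophages (63.7%, 54.9% and 56.7%), Cd209g in 42.0%, 29.7% and 33.7% (51.0%, 49.9% and 42.9%), and Clec10a in 88.8%, 66.4% and 65.8% (92.6%, 88.2% and 79.8%). In the Lyve1 subset Cd209f was detected in 80.3%, 76.3% and 73.0% of cells (79.8%, 85.6% and 78.4%), and in 48.3%, 31.4% and 36.9% of the other macrophages (53.8%, 42.9% and 44.5%).

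The genes whose levels were most like those of each member were sought over 36 named immune clusters of 50 or more cells, as Pearson's r of log2(CPM + 10), among 6783 genes. Clusters share libraries and depth, so r is a description. Cd209f and Cd209g were nearest to each other of all genes (r = 0.988). Next to Cd209f stood Colec12, a scavenger lectin (0.967), and Maoa (0.959), and next to Cd209g stood Colec12 (0.974) and the complement gene C4b (0.967). Cd209a was most like Mgl2, a galactose-type lectin (0.920), Cd209e (0.913) and Cd209d (0.884). Cd209d was most like Cd209a, then Sulf2 (0.863) and Fh1 (0.857), and Cd209e was most like Cd209a, Cd209d (0.851) and Kmo (0.844). Between the Cd209a and Cd209f arms the likeness was weaker, with r = 0.328 for Cd209a and Cd209f.

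Clec4d was most like Sgms2 (r = 0.942), Clec4e (0.941) and Tgm2, a transglutaminase (0.937). Clec4e was most like Cd300lf, an inhibitory receptor (0.965), Tgm2 (0.949) and Trem3 (0.944). Clec4n was most like Rhog, a small GTPase (0.897), Clec5a, another Syk-coupled lectin (0.890), and Atp6v0c, a subunit of the proton pump (0.865), with r = 0.778 to Clec4d and 0.710 to Clec4e. Clec10a was most like Pros1 (0.970).

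The neighbouring parts of the pathway were read from fixed lists, with medians of log2 folds taken at a pseudocount of 1 CPM. Of 28 other C-type lectin receptors, 13 passed the filter in macrophages in WT_UV over WT_Ctrl; 0 were called higher and 3 lower, namely Clec4b1 (192 to 48.3 CPM, 0.252, interval 0.233 to 0.274), Clec2i (29.2 to 12.2 CPM, 0.418, 0.346 to 0.505) and Mgl2 (2209 to 1026 CPM, 0.465, 0.455 to 0.474), where 1.08% of all genes were lower. In the sums over macrophages, Clec4b1 was thus lower while Clec4n, of the same chromosome 6 family, was higher. Whether both moved in the same cells was not tested. In RP_UV over WT_UV 3 of 13 were lower: Clec2i at 0.321 (0.228 to 0.442), Clec4b1 at 0.342 (0.292 to 0.400) and Cd209c at 0.364 (0.265 to 0.492), where 3.23% of all genes were. In RP_UV over WT_Ctrl 4 of 12 were lower: Clec4b1 at 0.0864, Clec2i at 0.134, Mgl2 at 0.241 and Clec2d at 0.471, where 4.81% of all genes were. The list medians were -0.01, -0.46 and -0.34 in these 3 comparisons, against 0.04, -0.04 and 0.03 over all genes that passed. In type 2 dendritic cells 4 of 18 were higher and 1 lower in WT_UV over WT_Ctrl, where 3.96% and 1.77% of all genes were, with a list median of 0.55 against 0.06 over all genes.

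Downstream of the receptors, 21 of the 23 adaptors and kinases of the Syk and Card9 route passed the filter in macrophages. In WT_UV over WT_Ctrl 1 was called higher: Malt1, the paracaspase of the Card9 complex (19.98 to 67.0 CPM, 3.35-fold, interval 2.80 to 4.05). A count of 1 in 21 is near the 3.35% of all genes that were higher. In RP_UV over WT_UV 2 were lower, Malt1 (0.202, 0.170 to 0.238) and the NF-kB subunit Rel (0.487, 0.441 to 0.537), and in RP_UV over WT_Ctrl 1 was, Rubcn (0.499, 0.411 to 0.607). The shares of all genes that were lower were 3.23% and 4.81%. The list medians were 0.11, -0.19 and -0.06. Of 10 inhibitors of the route, which all passed the filter here, 3 were higher in WT_UV than in WT_Ctrl: Dusp5 (7.91-fold, 4.47 to 15.5), Tnfaip3, which encodes A20 (2.97-fold, 2.54 to 3.495), and Dok3 (2.02-fold, 1.63 to 2.51), against 3.35% of all genes, with a list median of 0.28. The same 3 genes were higher in RP_UV than in WT_Ctrl, at 5.56-fold, 2.12-fold and 2.67-fold, against 5.16% of all genes, with a list median of 0.02 over 9 that passed, and 0 of 10 passed 2-fold between RP_UV and WT_UV, with a list median of -0.29.

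The listed outputs of the route were mostly higher after UVB in macrophages. They are cytokine genes and also Ptgs2, Nlrp3, Egr2 and Egr3, which do not encode cytokines. In WT_UV over WT_Ctrl 9 of the 10 that passed were higher, against 3.35% of all genes. The list median was 2.21 against 0.04 over all genes. Ptgs2, Cxcl1, Nlrp3 and Il10 passed the filter only through WT_UV and could not be called lower. The furthest were Ptgs2 (39.9-fold, 19.3 to 99.5), Il1b (7.56-fold, 6.52 to 8.81), the neutrophil attractant Cxcl1 (7.03-fold, 4.55 to 11.4) and Tnf (5.28-fold, 4.24 to 6.66). In RP_UV over WT_UV 4 of 10 were higher and 1 lower, against 1.41% and 3.23% of all genes, with a list median of 0.25. The lower gene was Il1b (0.469, 0.439 to 0.4999), and Tnf stood at 0.830 (0.756 to 0.910). The higher genes were Cxcl1 (3.33-fold, 2.98 to 3.71), Ptgs2 (3.01-fold, 2.77 to 3.26), Cxcl2 (2.89-fold, 2.81 to 2.97) and Ccl4 (2.20-fold, 2.07 to 2.34). Ptgs2 is the gene that RP mice overexpress, and whether rat reads count towards it was not tested. Its RP_UV values, though counted here and below, are therefore not read as an output of the route. In RP_UV over WT_Ctrl 8 of 10 were higher, against 5.16% of all genes, with a list median of 2.03. Here Ptgs2, Cxcl1, Nlrp3 and Il10 passed the filter only through RP_UV and could not be called lower. The furthest were Ptgs2 (120.0-fold, 58.1 to 299), Cxcl1 (23.4-fold, 15.2 to 38.0), Cxcl2 (13.1-fold, 12.0 to 14.4) and Ccl4 (4.53-fold, 3.99 to 5.17), and Il1b was 3.54-fold higher (3.03 to 4.16). These genes have many other inducers, and the folds of Ptgs2 over WT_Ctrl rest on 7 UMIs there. Among these outputs in type 2 dendritic cells, 4 of 10 were higher and 1, Il6 (0.2755, 0.168 to 0.448), was lower in WT_UV over WT_Ctrl (median 0.42), against 3.96% and 1.77% of all genes. Cxcl2, called higher, passed only through WT_UV and Il6 only through WT_Ctrl, so neither could be called the other way. In RP_UV over WT_UV 3 of 10 were higher (median 0.72), against 2.92%. Of these, Il10 and Cxcl1 passed only through RP_UV and could not be called lower.

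Genes listed as signs of handling or of other cells also moved with the groups in macrophages. The paper places Jun and Junb in its inflammation gene set. For the genes of cell stress below, handling thus cannot be told apart from UVB or genotype. The shares of all genes called higher were 3.35% in WT_UV over WT_Ctrl, 1.41% in RP_UV over WT_UV and 5.16% in RP_UV over WT_Ctrl, and those called lower 1.08%, 3.23% and 4.81%. Of 12 genes of cell stress during dissociation, 2 were higher in WT_UV than in WT_Ctrl, Atf3 (2.32-fold) and Junb (2.03-fold), 1 was higher in RP_UV than in WT_UV, Egr1 (2.96-fold), and 5 in RP_UV than in WT_Ctrl, led by Egr1 (3.03-fold), Atf3 (2.71-fold), Jun (2.33-fold) and Hspa1a (2.16-fold). Of 13 genes of other cell types, 7 passed the filter and 1 was higher (Krt1, 2.29-fold) and 1 lower (Col1a2, 0.492) in WT_UV over WT_Ctrl. Krt1 passed only through WT_UV and could not be called lower. In RP_UV over WT_UV 4 of 9 were higher, S100a9 (41.1-fold), S100a8 (6.46-fold), Krt14 (4.28-fold) and Krt5 (2.94-fold). S100a9, S100a8 and Krt5 passed the filter only through RP_UV and could not be called lower. The same held for S100a9 and S100a8 in RP_UV over WT_Ctrl. In RP_UV over WT_Ctrl 3 of 9 were higher and 3 lower, with Krt14 at 5.24-fold, Col1a1 at 0.255, and S100a9 and S100a8 at 21.1 and 18.2 CPM against 0 UMIs. Their part in the receptor levels was not tested beyond the values without S100a8 and S100a9 given above.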

How the data were processed

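Per the labels, each library was 10x 3′ single-cell RNA-seq of dorsal skin. The deposited matrices hold raw UMI counts, which the authors obtained from Cell Ranger 6.1.1 (per the file headers) on mm10. Cells with 200 to 4000 genes (to 6000 in WT_UV) and under 10% mitochondrial UMIs were kept, after the limits the study states. Libraries were integrated with Seurat 5.3.0 and sctransform 0.4.2 and clustered, then split again, without C-type lectin genes; 120 clusters were named from marker panels, with naming limits set after the clusters were seen, and 30 stayed unnamed. Scrublet called 1.17%, 0.0163% and 0.0276% of barcodes, so its calls were not used to remove doublets.

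UMIs were summed per class and library and divided by the UMIs of all genes (CPM). Levels have exact Poisson and ratios exact binomial 95% intervals; shares of cells have Wilson intervals. All cover counting error only. A value of 0 allows up to 3 counts. The barcodes numbered 5977, 6149 and 7240, with 34985549, 82722013 and 37689836 UMIs. All 9 members were named in both main classes, list genes by the 4 largest folds past 2, and like genes by the 3 highest r. The scripts were tested on simulated data. The members and lists were chosen with earlier results of these data known. Alternatives changed the gene limit, integration, clustering genes, class source, naming, doublets, summing, depth and the CPM filter; a second set, chosen after seeing the data, left out shared barcodes, cells with S100a8 or S100a9 UMIs or the cycling cluster, added monocytes, or centred the folds.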

Additional observations from a re-analysis of the deposited data

How the results depend on the processing

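Counts of members past 2-fold were recomputed under 84 alternatives over 6 comparisons; 77 stayed within 1.5 times the count reported and 7 did not. With a filter of 50 CPM the count in macrophages was 1 (WT_UV over WT_Ctrl), and in type 2 dendritic cells it was 1 (RP_UV over WT_UV) and 2 (RP_UV over WT_Ctrl), since fewer members were read. In type 2 dendritic cells, WT_UV over WT_Ctrl, the count was 1 with a limit of 4000 genes per cell in every library, and 4 with classes from each cell's marker UMIs, with every cluster named by its best panel, or with a filter of 1 CPM. The cause was not tested for the class and gene limit settings. All 21 called folds kept their direction in every setting run for them and 17 stayed past 2-fold. The exceptions were Cd209e in macrophages (RP_UV over WT_UV, log2 fold -1.28 to -0.81), Cd209e in type 2 dendritic cells (WT_UV over WT_Ctrl, -1.19 to -0.91) and Cd209f in type 2 dendritic cells (0.23 to 3.92 over WT_UV, 0.11 to 1.83 over WT_Ctrl). Clec4e in macrophages, RP_UV over WT_UV, was 0.895-fold as reported and at a log2 fold of 1.10 without integration. Thinning to 1000 in place of 2000 UMIs moved 47 of 54 shares beyond their intervals. No paired analysis was possible because each group had 1 library. Depth limits the folds of Clec4e and Clec4d over WT_Ctrl, which rest on 4 to 25 UMIs in its macrophages and type 2 dendritic cells.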
